A study of Homo sapiens with 18 samples.

Results

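The kinetochore and spindle checkpoint genes analysed here are 41 human genes, chosen by name for the parts their proteins take in the kinetochore, and each of the 41 was found among the 58302 genes of the deposited count table. By the place of their proteins they were arranged into 17 genes of the inner centromere, 18 genes of the outer kinetochore and 6 genes of the spindle checkpoint. RNA-seq was performed on U87MG (labelled U87), an established human glioblastoma cell line, in 2 libraries of control cells under normal growth and 2 libraries of cells given Erastin at 10 μM for 72 h. Erastin is a small molecule that blocks system Xc-, the carrier that brings cystine into the cell, and the study used it to set off ferroptosis. The labels name no vehicle for the control cells and no genetic change in either group, and they call the libraries biological replicates without saying which were prepared together. The comparison asks how the RNA of each gene differed between Erastin-treated and control cells.

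The kinetochore is the protein assembly that couples a chromosome to the microtubules of the mitotic spindle. Its base is chromatin that holds CENP-A, a histone H3 variant, on which the inner kinetochore proteins sit as a constitutive network. Genes of this network and of CENP-A and its loading are grouped here under the name inner centromere. The outer kinetochore, built on that base as cells enter mitosis, holds the MIS12, KNL1 and NDC80 complexes, which bind one another and the microtubule. The spindle checkpoint proteins gather on kinetochores that lack microtubules and hold back anaphase until every chromosome is attached. RNA of many of these genes is known to rise toward mitosis and to be low in cells that do not divide.

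The libraries held between 29412656 and 31513519 counts on genes, and 16751 genes passed the filter on low counts and entered the quasi-likelihood test of edgeR. Counts are given below as CPM, counts put on a common library size by TMM normalization, with log2 fold changes as Erastin minus control and their standard errors as SE. A gene was called where this change reached 1 in either direction and its Benjamini-Hochberg adjusted p was under 0.05. The biological coefficient of variation was 10.3%, and the p-values draw on this spread over many genes. With 2 libraries a group, the smallest two-sided p of an exact permutation test would be 0.333. Transcripts of mitochondrial DNA took 7.23% to 7.85% of the counts in control libraries and 2.80% to 3.54% in Erastin libraries, and their part in the results below was not tested. Of 8 glial and mesenchymal glioma markers, VIM stood at 2515 CPM and CD44 at 1405 CPM in control cells, whereas GFAP (1.41 CPM), OLIG2 (2.71 CPM) and SOX2 (0.0327 CPM) were near 0, and NES, TNC and CHI3L1 were called lower with Erastin. The 8 markers of other cell types summed to 5.49 and 7.60 CPM in control libraries and to 2.71 and 3.18 CPM in Erastin libraries, where PECAM1 was called lower and VWF higher, and AIF1 had no count in any library. In bulk RNA, fewer cells of a kind, such as fewer cells in mitosis, and less RNA per cell cannot be told apart.

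Most kinetochore and checkpoint genes were lower in Erastin-treated cells, by up to 15.2-fold, and none was called higher. Of the 41 genes, 39 were tested, and each of the 39 had at least 10 counts in every library, the lowest being 18. edgeR's quasi-likelihood test called 27 of the 39 lower and 0 higher, where 9.34% of all tested genes were called lower and 6.24% higher. Without the threshold on size, 32 were lower and 1 was higher at an adjusted p under 0.05, against 23.7% and 23.2% of all tested genes, and 6 missed it. Both Erastin libraries lay below both control libraries for 35 of the 39 genes, where 36.9% of all tested genes did so, and above them for 1 gene, PMF1, where 36.7% did so. The groups overlapped for CENPP, CENPT and BUB3. These counts of overlap hold on the CPM scale.

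The median log2 fold change of the 39 genes was −1.59, beside −0.00259 over all tested genes, and the falls were spread widely. A fall of at least 2 on the log2 scale was called for 17 of them and a fall of at least 3 for 11 of them, where 3.33% and 1.13% of all tested genes reached these sizes. The 11 genes were NUF2, SPC24, TTK, BUB1, BUB1B, HJURP, NDC80, CENPE, KNL1, CENPF and CENPA, of which 2 belong to CENP-A and its loading, 6 to the outer kinetochore and 3 to the checkpoint. None belongs to CENP-C, to the network on CENP-A chromatin or to the MIS12 and SKA complexes. Summed over the 41 genes, the level was 1755 and 1829 CPM in the control libraries and 609 and 606 CPM in the Erastin libraries, a ratio of 2.95. The summed level fell most for the NDC80 complex, whose control level was 12.8 times its Erastin level, and by far less for the MIS12 complex (1.41 times) and for CENP-T with CENP-W (1.31 times). Over the 39 genes, the change had a Spearman correlation of −0.238 with the control level per length and of −0.0182 with exon length, values that come from the same libraries and are given as a description.

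**Figure D1:**
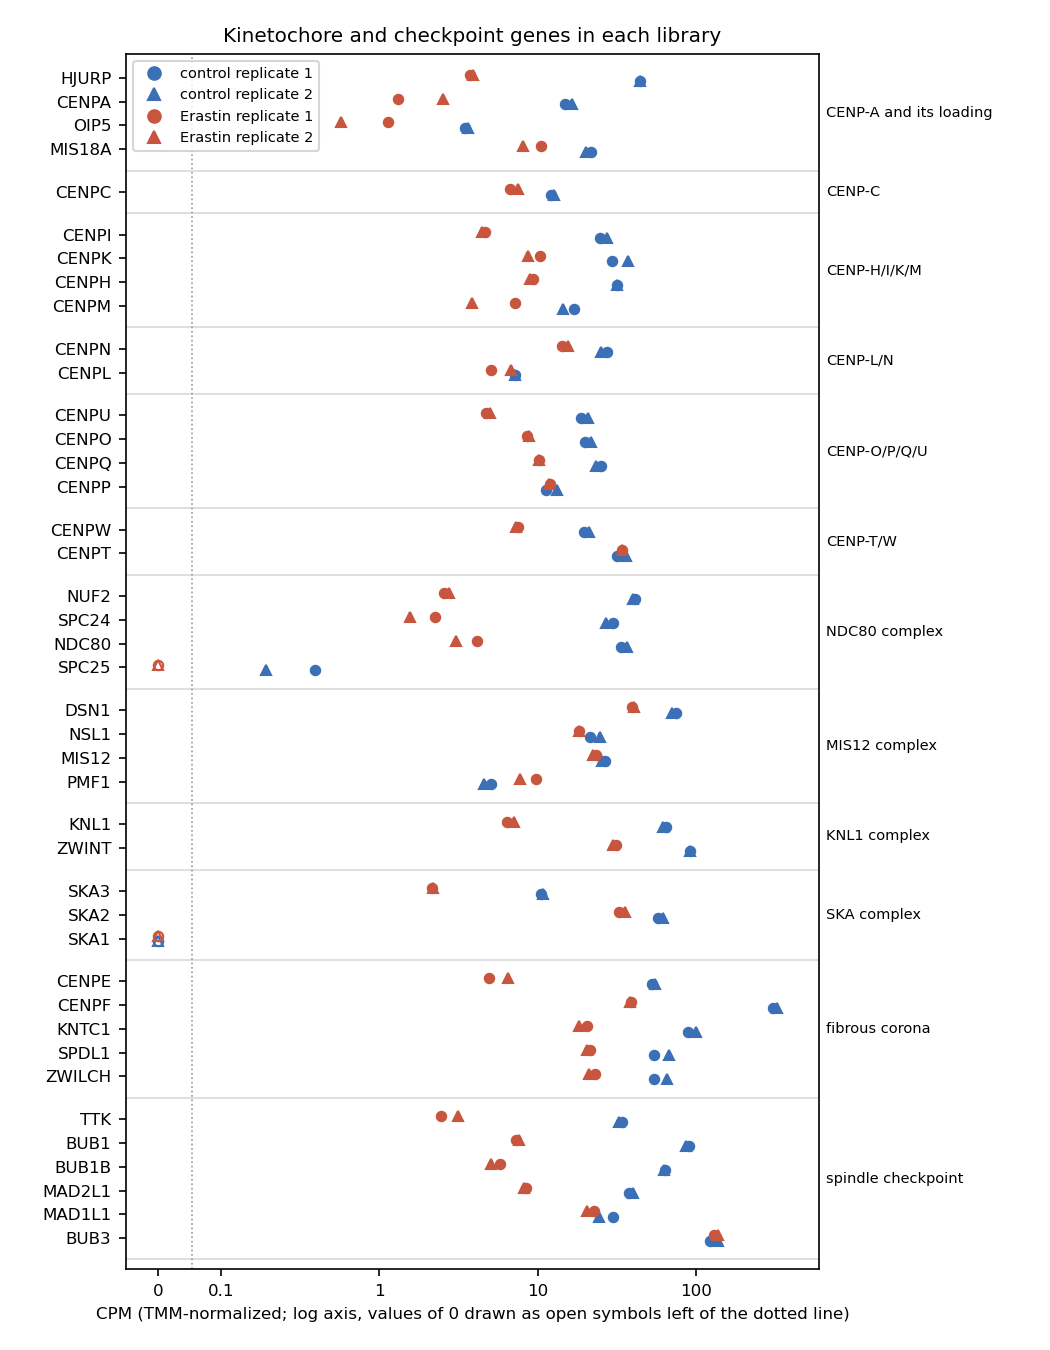
Level of each of the 41 genes in each library, in CPM on a log axis with values of 0 drawn apart, ordered by complex (blue, control; red, Erastin; circles, replicate 1; triangles, replicate 2). Red symbols lie left of both blue symbols for 35 of the 39 tested genes, PMF1 is the gene with both to the right, and SKA1 is listed at 0 in every library.

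**Figure D2:**
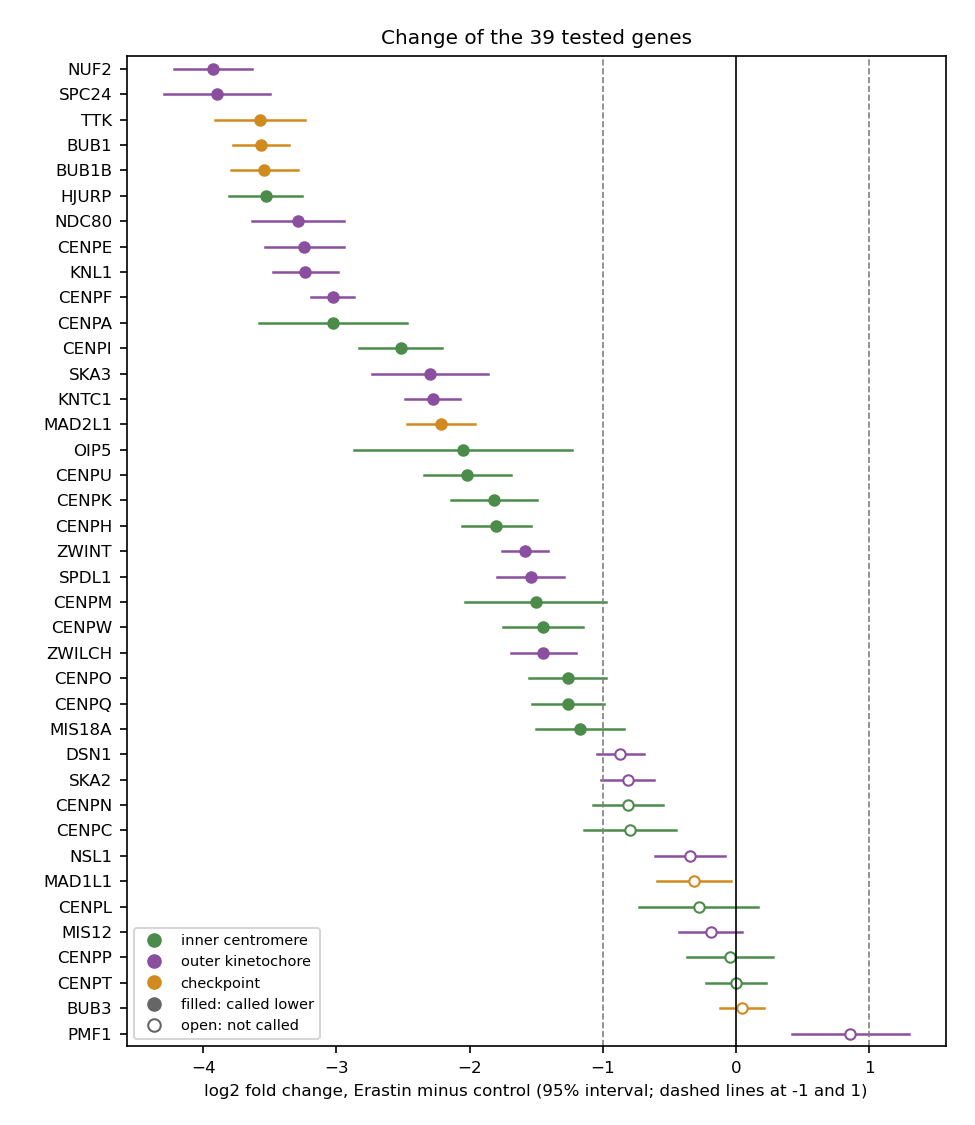
Log2 fold change of the 39 tested genes, Erastin minus control, with 95% intervals from edgeR, in the colour of their group and filled where called lower. The order runs from NUF2 at −3.93 to PMF1 at 0.86, and 12 genes have open symbols.

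Promoters were looked up because so many of these genes moved together. The RefSeq table of promoters for GRCh38.p14, from 250 bases before to 50 bases after each start, held 33 of the 41 genes with 38 promoters, and it did not match BUB3, CENPH, CENPL, CENPM, KNL1, KNTC1, MIS18A and TTK. Motifs were searched as plain letters on both strands. The cell cycle genes homology region (CHR), known as an element to which MuvB complexes bind in genes of late cell cycle, was searched as TTTGAA and as TTTAAA. The first form, TTTGAA, stood in promoters of 15 of the 33 genes, beside 18.2% of the 27305 genes in the table. In 13 of the 15, TTTGAA began within 50 bases before or after a start, a position not counted over all genes. Among genes called lower 11 of 21 held it, and among genes tested and not called 2 of 10 did. TTTAAA stood in 3 of the 33 genes, beside 14.5% of all genes, and the 3 were among the 21 called lower. The NF-Y motif CCAAT stood in 21 of the 33, beside 39.7% of all genes (14 of 21 genes called lower and 6 of 10 not called), and any of the E2F motifs TTGGCGC or TTGCCGC or TTCGCGC or TTCCCGC in 14 of the 33, beside 15.3% (9 of 21 called lower and 3 of 10 not called). The differences between called and uncalled genes were not tested for any motif. A match of letters is a description and not a bound site, and a window without a match says only that these letters are not in it.

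The windows below run from 57 bases before to 3 bases after a RefSeq start, on the strand of the gene. They are picked examples that set genes with TTTGAA beside the start next to genes without it in the window. Other genes went the other way. BUB1 and SPC24 were called lower with no TTTGAA in their promoters, and CENPN was not called although its promoter held it. Capitals mark TTTGAA, or TTCAAA where it lies on the other strand. CENPA (chr2:26785999-26786058, plus strand), BUB1B (chr15:40161012-40161071, plus), NDC80 (chr18:2571500-2571559, plus), SKA3 (chr13:21176550-21176609, minus), SPC25 (chr2:168890428-168890487, minus), ZWINT (chr10:56361257-56361316, minus) and SPDL1 (chr5:169583716-169583775, plus) held it, and MIS12 (chr17:5486317-5486376, plus), CENPT (chr16:67847691-67847750, minus) and PMF1 (chr1:156212950-156213009, plus) did not.
CENPA: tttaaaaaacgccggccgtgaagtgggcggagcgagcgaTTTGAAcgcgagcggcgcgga
BUB1B: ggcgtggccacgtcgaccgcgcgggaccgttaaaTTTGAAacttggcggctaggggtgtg
NDC80: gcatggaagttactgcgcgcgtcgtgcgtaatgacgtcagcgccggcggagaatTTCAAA
SKA3: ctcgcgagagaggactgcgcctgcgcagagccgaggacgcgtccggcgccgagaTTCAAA
SPC25: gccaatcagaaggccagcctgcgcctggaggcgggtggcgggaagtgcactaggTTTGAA
ZWINT: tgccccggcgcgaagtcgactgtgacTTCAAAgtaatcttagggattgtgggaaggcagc
SPDL1: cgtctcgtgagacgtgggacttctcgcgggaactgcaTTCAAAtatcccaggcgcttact
MIS12: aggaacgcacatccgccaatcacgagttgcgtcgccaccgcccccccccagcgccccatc
CENPT: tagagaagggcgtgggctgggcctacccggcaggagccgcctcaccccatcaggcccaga
PMF1: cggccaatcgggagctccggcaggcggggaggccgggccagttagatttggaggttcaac
In SPC25, NDC80 and SKA3 the letters end at the last base of the window, across the start itself.

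Of the 17 inner centromere genes, each of them tested, 12 were called lower and 0 higher, and the median log2 change was −1.45. Of all tested genes, 9.34% were called lower and 6.24% higher, shares that also stand beside the counts by complex below. The genes that place CENP-A were called lower in full, 4 of 4. HJURP (ENSG00000123485, chr2:233833416-233854566 of GRCh38), the chaperone that deposits CENP-A at centromeres, had 44.6 and 44.1 CPM in the control libraries and 3.74 and 3.91 CPM in the Erastin libraries. The replicates lay close together and far apart from the other group, at a log2 fold change of −3.53 (SE 0.124, adjusted p = 1.38e-09). CENPA, the histone variant itself, went from 14.9 and 16.4 CPM to 1.30 and 2.51 CPM (log2 fold change −3.03, SE 0.253). MIS18A, a subunit of the complex that licenses centromeres for new CENP-A, changed least of the 4, from 21.6 and 20.2 CPM to 10.5 and 8.08 CPM. Its log2 fold change of −1.17 (SE 0.151, adjusted p = 5.49e-05) became −0.99, under the threshold on size, without Erastin replicate 2. OIP5, the partner of MIS18A in that complex, was a low gene with 106 and 112 counts against 34 and 18 counts (log2 fold change −2.05, SE 0.373). The antisense gene OIP5-AS1 shares 38.0% of the exon bases of OIP5, and as counting was without strand, reads on these bases were counted for neither gene.

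The network on CENP-A chromatin changed unevenly. The CENP-H/I/K/M genes were called lower in full, 4 of 4. CENPI (ENSG00000102384, chrX:101098218-101163681) fell most of them, from 24.8 and 27.3 CPM to 4.65 and 4.42 CPM, a log2 fold change of −2.52 (SE 0.141, adjusted p = 5.54e-08). CENPM fell least, from 17.0 and 14.4 CPM to 7.22 and 3.85 CPM, at −1.51 (SE 0.241, adjusted p = 0.000300). The Erastin libraries differed from each other in CENPM by more than in the other genes of this complex, yet both stayed below control. CENPK at −1.82 and CENPH at −1.80 lay between.

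In the CENP-O/P/Q/U group, whose proteins attach to that network, 3 of 4 genes were called lower. CENPU fell from 18.9 and 20.7 CPM to 4.75 and 5.03 CPM (log2 fold change −2.02, SE 0.149, adjusted p = 5.65e-07), and CENPO at −1.27 and CENPQ at −1.26 were called near the threshold. The fourth, CENPP, had 11.3 and 13.3 CPM in control cells and 12.0 and 11.7 CPM in Erastin-treated cells. Its groups overlapped, with a log2 fold change of −0.05 (95% interval −0.37 to 0.27, adjusted p = 0.818). CENPP shares 39.5% of its exon bases with other genes, mostly IPPK on the opposite strand, and CENPO shares 31.4%, mostly with ADCY3, which was itself called lower at −1.12. Reads on shared bases were not counted for either gene, so these levels rest on the bases each gene has alone.

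CENPC, CENPN, CENPL and CENPT were not called. CENPC, which encodes the protein that links CENP-A chromatin to the MIS12 complex, had 12.1 and 12.7 CPM in control cells and 6.72 and 7.54 CPM with Erastin. The groups did not overlap, and the log2 fold change of −0.79 (SE 0.158, adjusted p = 0.00145) passed the test but not the size. CENPN, which encodes a protein that reads the CENP-A nucleosome, changed by a similar amount, from 27.3 and 25.04 CPM to 14.2 and 15.6 CPM (log2 fold change −0.81, adjusted p = 0.000158). Its partner CENPL had 7.16 and 7.21 CPM in control and 5.05 and 6.78 CPM in Erastin libraries, a difference of −0.28 that the test did not separate from 0 (95% interval −0.73 to 0.17, adjusted p = 0.286).

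CENP-T and CENP-W form a histone-fold pair that offers another path to the NDC80 complex, and their RNAs parted. CENPW fell from 19.5 and 21.0 CPM to 7.56 and 7.26 CPM, a log2 fold change of −1.45 (SE 0.137, adjusted p = 4.36e-06). CENPT had 31.7 and 36.2 CPM in control and 33.9 and 34.0 CPM in Erastin libraries. Its log2 fold change was 0.00, with a 95% interval of −0.22 to 0.23 and an adjusted p of 0.992. Per length, as TPM (counts per kilobase of exon, scaled to the same sum in each library), the CENPT level was 0.234 and 0.247 of the CENPW level in control libraries and 0.645 and 0.673 of it in Erastin libraries. On that scale CENPT itself had 19.4 and 23.0 TPM in control and 24.4 and 24.0 TPM in Erastin libraries, without overlap. CENPT shares 19.6% of its exon bases with 3 genes on the opposite strand. Its length includes these bases, where reads were not counted, which can lower its TPM and its ratio to CENPW.

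Of the 18 outer kinetochore genes, 16 were tested, 11 were called lower and 0 higher, and their median log2 fold change was −1.93. Of all tested genes, 9.34% were called lower and 6.24% higher. The NDC80 complex, a rod of 4 proteins that is the main microtubule binder of the kinetochore, held the 2 largest falls of the 39 genes. NUF2 (ENSG00000143228, chr1:163266576-163355764) had 41.1 and 39.8 CPM in control and 2.54 and 2.77 CPM in Erastin libraries. That is 6.57% of the control level, at a log2 fold change of −3.93 (SE 0.135, adjusted p = 1.19e-09). SPC24, in the part of the rod that binds MIS12, was close to it at −3.90 (SE 0.181), from 29.7 and 26.9 CPM to 2.24 and 1.56 CPM. NDC80 (ENSG00000080986, chr18:2571511-2616635), the microtubule-binding subunit, fell from 33.6 and 36.4 CPM to 4.11 and 3.06 CPM, at −3.29 (SE 0.156, adjusted p = 1.43e-08). Per length the 3 RNAs were at nearly one level in control libraries, 31.5 to 41.8 TPM, and at 2.14 to 4.55 TPM in Erastin libraries.

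The remaining NDC80 complex gene, SPC25, was seen with 12 and 6 counts in control cells and with 0 in both Erastin libraries. It did not pass the filter on low counts. Without that filter edgeR called it lower (adjusted p = 0.0234), as DESeq2 did (adjusted p = 0.0388), but with Erastin replicate 1 or 2 left out, where SPC25 passed the filter, edgeR did not (adjusted p = 0.108 and 0.125). Its control mean was 5.99 times a floor of 3 counts over the Erastin libraries, a value without the error of the control counts. With SPC25 set at that value the median of the genes became −1.69. SKA1 was listed at 0 counts in each of the 4 libraries. Of the 31-base words in the exons of SKA1 and SPC25, 100% and 97.3% also occur on the 261 alternate scaffolds of GRCh38, against at most 14.8% for every other gene of the 41. At other places of the main assembly, 20.5% and 26.5% of the words of SKA1 and SPC25 recur, and at most 23.0% for the others, in SPC24. Reads that matched more than 1 place had not been counted. The part of the scaffolds and of these places in the low counts of SKA1 and SPC25 was not tested.

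The MIS12 complex, the hub between the inner kinetochore and the NDC80 complex, had no called gene, 0 of 4. As only 9.34% of all tested genes were called lower, this count is a description. DSN1 fell from 75.1 and 70.9 CPM to 39.5 and 40.5 CPM, at a log2 fold change of −0.87 (SE 0.0799, adjusted p = 3.57e-06), which passed the test but not the size. NSL1 had 21.5 and 24.8 CPM in control and 18.3 and 18.1 CPM in Erastin libraries (log2 fold change −0.34, SE 0.12, adjusted p = 0.0338). Its adjusted p was 0.088 with DESeq2 and 0.0698 with edgeR on library totals. MIS12 (ENSG00000167842, chr17:5486285-5490814) had 26.5 and 25.6 CPM in control and 23.2 and 22.4 CPM with Erastin (−0.19, 95% interval −0.42 to 0.04, adjusted p = 0.169). In CPM all 3 had both Erastin libraries below both control libraries, DSN1 at 54.8% of its control level and NSL1 and MIS12 at 78.8% and 87.6%. In TPM, which is without TMM, MIS12 had 28.4 and 28.6 in control and 29.3 and 27.7 in Erastin libraries. NSL1 had 17.8 and 21.4 TPM in control and 17.8 and 17.3 TPM in Erastin libraries, so that both genes overlapped on that scale.

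PMF1 was the only one of the 39 genes higher in Erastin-treated cells at an adjusted p under 0.05. It had 5.04 and 4.60 CPM in control libraries and 9.80 and 7.70 CPM in Erastin libraries, without overlap. The log2 fold change was 0.86 (SE 0.199, adjusted p = 0.00385), and without Erastin replicate 2 it was 1.02, past the threshold on size. PMF1 shares 23.3% of its exon bases with the readthrough gene PMF1-BGLAP, which was listed at 0 counts in each library. Reads on these bases were counted for neither gene, so the 0 does not measure readthrough RNA there. As a share of the summed TPM of the 41 genes, the MIS12 complex went from 10.7% and 10.1% to 20.4% and 20.4%, and the NDC80 complex from 7.98% and 7.61% to 1.82% and 1.54%.

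KNL1, the scaffold that carries checkpoint proteins on the outer kinetochore, fell from 64.8 and 61.9 CPM to 6.39 and 7.07 CPM (log2 fold change −3.23, SE 0.111, adjusted p = 1.15e-09). ZWINT, its binding partner, fell from 91.9 and 92.2 CPM to 31.2 and 30.1 CPM, at −1.59 (SE 0.0781, adjusted p = 1.93e-08). Both were called, yet per length ZWINT stood at 6.12 and 6.41 times KNL1 in control libraries and at 21.1 and 18.4 times KNL1 in Erastin libraries. In the SKA complex, which stabilizes the grip on microtubules, SKA3 fell from 10.4 and 10.8 CPM to 2.14 and 2.16 CPM (−2.30, SE 0.20, adjusted p = 2.26e-06). SKA2 was not called, with 57.6 and 61.9 CPM in control and 32.6 and 35.4 CPM in Erastin libraries (−0.81, SE 0.0898, adjusted p = 1.60e-05).

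The 5 genes of the fibrous corona, the outermost layer that unattached kinetochores spread, were called lower in full. CENPE (ENSG00000138778, chr4:103105806-103198409), a kinesin that carries chromosomes toward the spindle equator, fell from 53.0 and 55.3 CPM to 4.95 and 6.49 CPM, at a log2 fold change of −3.24 (SE 0.136, adjusted p = 5.17e-09). CENPF, a large coiled-coil protein of the corona, had the highest level by counts of the 41 genes in control cells, 307 and 324 CPM, and fell to 39.1 and 38.3 CPM (−3.03, SE 0.0729). KNTC1 and ZWILCH belong to the RZZ complex, which brings dynein and checkpoint proteins to the corona, and SPDL1 is the adaptor between RZZ and dynein. KNTC1 was at −2.28, SPDL1 at −1.54, and ZWILCH at −1.45 (SE 0.112, adjusted p = 8.23e-07), from 54.3 and 66.2 CPM to 23.0 and 21.3 CPM. The control libraries differed from each other in SPDL1 and ZWILCH by more than the Erastin libraries did, and the groups stayed apart.

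Of the 6 checkpoint genes, 4 were called lower and 0 higher, beside 9.34% and 6.24% of all tested genes. Their median log2 change was −2.88. TTK (ENSG00000112742, chr6:80003887-80042527), the MPS1 kinase that starts checkpoint signalling, fell from 34.0 and 32.8 CPM to 2.44 and 3.15 CPM, at −3.57 (SE 0.153, adjusted p = 6.01e-09). BUB1 (ENSG00000169679, chr2:110637698-110678114), a kinase that docks on KNL1, fell from 89.8 and 86.4 CPM to 7.25 and 7.61 CPM, also at −3.57 (SE 0.0971, adjusted p = 3.48e-10). BUB1B, which encodes the checkpoint protein BUBR1, fell from 1957 and 1958 counts to 174 and 160 counts (−3.54, SE 0.115, adjusted p = 8.59e-10). These 3 genes were each at 8.40% to 8.59% of their control level. BUB1B shares 10.2% of its exon bases with the readthrough gene BUB1B-PAK6, which was listed at 0 in each library. Here too reads on shared bases were counted for neither gene, so the 0 does not measure readthrough RNA there.

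MAD2L1, which encodes the MAD2 protein that inhibits the anaphase-promoting complex, fell less, from 37.8 and 39.8 CPM to 8.46 and 8.21 CPM (−2.22, SE 0.116, adjusted p = 3.19e-08). MAD1L1, the partner that holds MAD2 at kinetochores, was not called, with 29.9 and 24.2 CPM in control and 22.8 and 20.6 CPM in Erastin libraries (−0.32, 95% interval −0.60 to −0.04, adjusted p = 0.0601). Its adjusted p from edgeR was 0.0382 with the replicate block and 0.0394 with no filter on low counts. Its log2 fold change was −0.16 without control replicate 1 and −0.47 without control replicate 2. Its groups did not overlap in CPM, but the lower control library lay near the higher Erastin library. In TPM they overlapped, at 14.0 and 11.8 in control and 12.6 and 11.1 in Erastin libraries. BUB3, a WD40 protein that binds BUB1 and BUBR1 and also has roles outside mitosis, had 123 and 137 CPM in control and 130 and 138 CPM in Erastin libraries. The groups overlapped, with a log2 fold change of 0.04 (95% interval −0.12 to 0.21, adjusted p = 0.686). Counted with the checkpoint, KNTC1, ZWILCH and SPDL1 would bring the number of called checkpoint genes to 7.

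**Figure D3:**
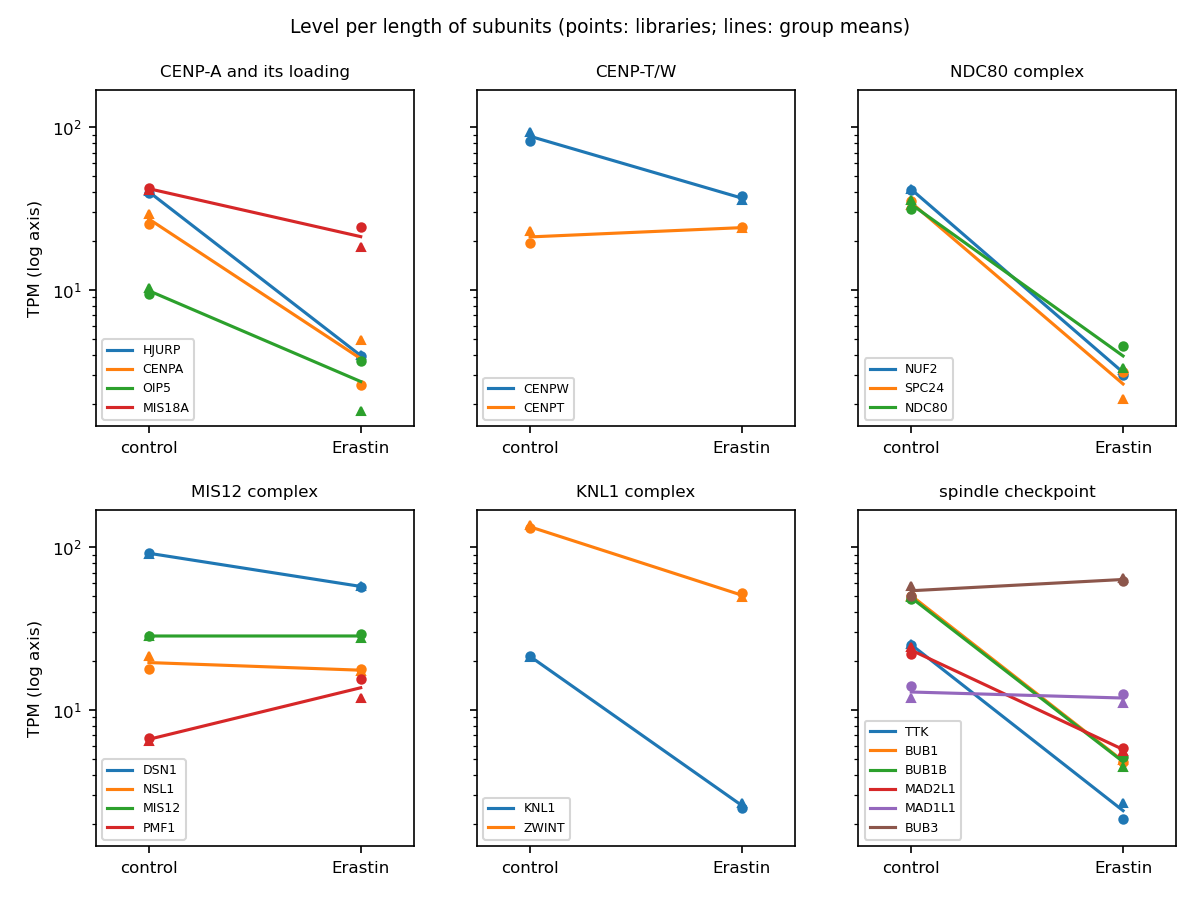
Level per length (TPM, log axis) of the genes of 6 assemblies in control and Erastin libraries, with circles for replicate 1, triangles for replicate 2 and lines joining group means. The NDC80 complex lines fall together, whereas in the MIS12 complex and the checkpoint some lines do not fall (MIS12, BUB3) beside others that do.

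Because partners in one assembly changed by different amounts, the ratio of their levels per length was taken within each library for 12 pairs, chosen with these changes known. In 10 of the 12 pairs the control and Erastin ratios did not overlap, counted in either direction. Among single genes, on the CPM scale, 36.9% lay apart as lower and 36.7% as higher. Only 4427 of the 16751 tested overlapped, so the count of pairs is a description. Each of the 10 came with an exact permutation p of 0.333, the smallest this design allows, and 0.4 after adjustment over the 12 pairs. BUB3 stood at 0.992 and 1.15 times BUB1 in control libraries and at 13.0 and 13.1 times BUB1 in Erastin libraries. MAD1L1 stood at 0.628 and 0.485 times MAD2L1 in control and at 2.15 and 1.99 times MAD2L1 in Erastin libraries, so that the order of the pair turned. MIS12 stood at 0.901 and 0.801 times NDC80 in control and at 6.44 and 8.37 times NDC80 in Erastin libraries. Within the NDC80 complex, NDC80 to NUF2 was 0.762 and 0.855 in control and 1.51 and 1.03 in Erastin libraries, without overlap, and SPC24 to NUF2 was 0.856 and 0.799 in control and 1.04 and 0.667 in Erastin libraries, which overlap. CENPA to HJURP overlapped too, at 0.644 and 0.716 in control and 0.671 and 1.24 in Erastin libraries. These are ratios of RNA, and protein was not analysed here.

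**Figure D4:**
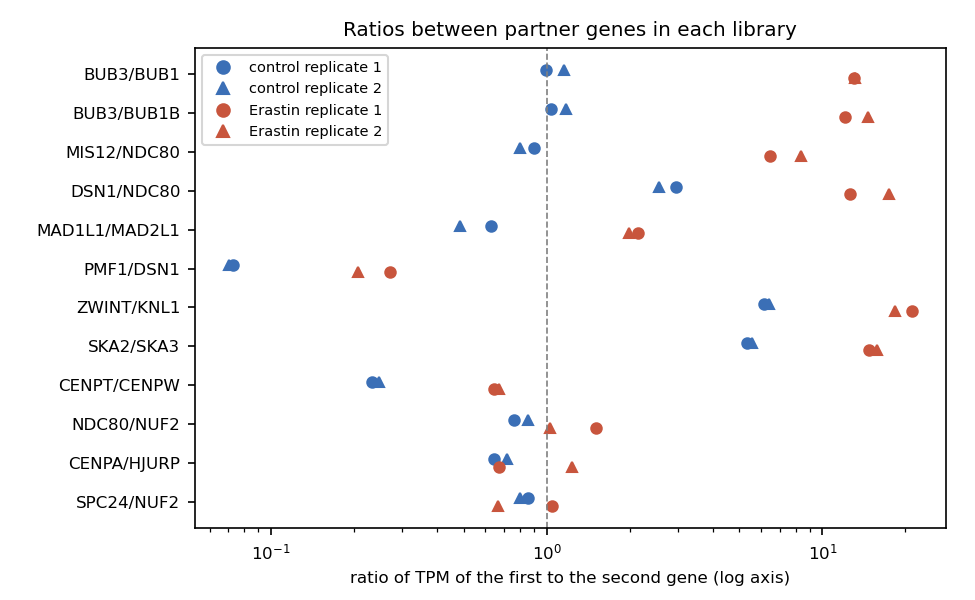
Ratio of the levels per length (TPM, log axis) of 12 pairs of partner genes in each library (blue, control; red, Erastin; circles, replicate 1; triangles, replicate 2), with a dashed line at equal levels. Red and blue symbols are apart in 10 pairs, furthest for BUB3 to BUB1, and overlap for CENPA to HJURP and SPC24 to NUF2.

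A further 25 genes of the centromere and kinetochore, outside the 41 and listed by name for their known roles, were read from the same test. Of these, 15 were called lower and 0 higher, beside 9.34% and 6.24% of all tested genes. At an adjusted p under 0.05, 18 were lower and 3 higher, beside 23.7% and 23.2%. The median log2 fold change of the 25 was −1.62, and the highest was 0.57. The 3 largest changes were those of CDC20, the activator of the anaphase-promoting complex that the checkpoint restrains (109 ± 8.33 to 4.44 ± 0.431 CPM, SD, n = 2, log2 fold change −4.62), of the mitotic kinase PLK1 (−4.51) and of BIRC5, which encodes survivin of the chromosomal passenger complex (−3.53). The 3 smallest were those of CLASP2, which guides microtubule growth (−0.08), CENPS (−0.14) and BOD1 (0.16). The 15 of 25 called lower and the 27 of 39 above both stand beside 9.34% of all tested genes, and the difference between these lists was not tested.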

How the data were processed

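RNA-seq of U87MG cells was analysed, with 2 control and 2 Erastin libraries grouped by their labels. The ChIP-seq and HiChIP samples were not analysed here. The authors deposited raw counts of reads per gene with no normalization. The paper's methods name Hisat2 and htseq-count, whereas per the file headers the table was written by featureCounts 2.0.3 with the Ensembl release 90 annotation of GRCh38. By that command counting was without strand, each read of a pair counted on its own, and reads on more than 1 gene or place were left out. The deposited values of all 4 libraries were whole numbers and not estimated counts, as rounding changed 0 of them.

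The test was run with edgeR 4.0.16 under R 4.3.3 (filterByExpr with a minimum count of 10, TMM factors of 0.971 to 1.02, and the two-sided quasi-likelihood test with Benjamini-Hochberg adjustment over 16751 genes). Totals were 29412656 to 31513519 counts per library. Without molecular identifiers, copies made by PCR were counted as separate reads, so the floor covers counting error only. CPM is on the TMM scale, and TPM uses exon lengths of the table without TMM. These lengths include bases shared with other genes, where reads were not counted. TPM and ratios of genes with shared bases can be biased by this. Coordinates are those of the table's annotation. Exon overlap was counted from the table's exons. The 31-base words of each gene were looked up on the alternate scaffolds of GRCh38 and elsewhere on its main assembly. Scripts were tested on simulated data.

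All 41 genes may be named, with values in every library for the largest and smallest change of each complex, for genes not called or higher and for all checkpoint genes, and of the 25 further genes the 3 largest and 3 smallest changes are named. The genes, lists and tests were chosen with earlier results of these data known. Alternatives tried were a replicate block, glmTreat, DESeq2 1.42.0, other filters, scaling by library totals or RLE, counts divided by 2, and leaving out each library.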

Additional observations from a re-analysis of the deposited data

How the results depend on the processing

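Of the 39 tested genes, 31 kept their direction and their side of the threshold for a call under each of 12 alternatives, and 8 changed in at least 1. The adjusted p taken alone crossed 0.05 for further genes, such as NSL1 and MAD1L1. At an adjusted p under 0.05, 31 genes were lower with library totals and 33 with the replicate block. With no filter on low counts the number was 34, SPC25 among them. The count of genes called lower was 23 with glmTreat, which tests against a log2 fold change of 1 and left CENPM, CENPO, CENPQ and MIS18A uncalled, 28 with DESeq2 and with no filter on low counts, where SPC25 was added, and 27 with the replicate block. With each library left out in turn it lay between 26 and 27, and the count called higher between 0 and 1, the 1 being PMF1 without Erastin replicate 2. The median log2 fold change lay between −1.89 and −1.60 with a library left out, lowest without Erastin replicate 1. With either Erastin library left out SPC25 passed the filter and entered this median, so the set of genes changed too. The median was −1.81 without the genes that share at least 10% of their exon bases. Of all genes, glmTreat called 748 lower and 377 higher. Counting KNTC1, ZWILCH and SPDL1 with the checkpoint made its called count 7. MIS18A was at −0.99 without Erastin replicate 2.

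The sign of genes near no change turned. CENPP was at 0.000676 with library totals, and between −0.162 and 0.0654 with a library left out. CENPT was at −0.00291 without a filter, at −0.000953 with at least 10 counts in every library, at −0.00156 with counts divided by 2, and between −0.0921 and 0.0910 with a library left out. BUB3 lay between −0.0387 and 0.116 with a library left out. The causes of these shifts were not tested. The replicate numbers are not said to pair libraries, and deviations of control and Erastin replicate 1 correlated at 0.0293 over all tested genes and at 0.198 over the genes described here. The replicate block called 1568 genes lower and 1039 higher and changed no other count by over 1.5 times. A log2 change of 1 in size lies within the 95% interval of CENPM, CENPO, CENPQ and MIS18A, which were called, and of DSN1, SKA2, CENPN, CENPC and PMF1, which were not.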
